A study of Homo sapiens with 4 samples.

Results

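The heat shock chaperones of the cytosol and the mitochondria, with their partners and regulators, were followed in 786-O cells that carry PRDM16 and in 786-O cells that carry a control vector. The group was chosen by name, as 40 genes: the HSP70 and HSP110 chaperones, HSP90 and its cochaperones, the J proteins, the BAG factors, the small heat shock proteins, the mitochondrial chaperones, members of the chaperonin TRiC, and the heat shock factors HSF1 and HSF2. These genes matched 41 of the 56753 loci in the deposited table, because DNAJC7 has 2 loci. At 5 of the 41 loci the value covers further genes: HSPA8 shares its locus with 2 small nucleolar RNAs, HSPE1 with MOB4 and the HSPE1-MOB4 readthrough, DNAJB4 with GIPC2, TRAP1 with RP11-461A8.4 and AHSA1 with AF111168.2.

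The established human line 786-O comes from a clear cell carcinoma of the kidney. Both groups were stably transduced, 2 libraries with a control vector and 2 with PRDM16 lentivirus, and were grown as adherent cultures, with no other treatment named in the labels. The comparison asks how overexpression of PRDM16, a zinc finger regulator of transcription, changes the RNA of these cells. It is a single cell line, and the labels do not say whether libraries of 1 group came from separate cultures, so each p-value measures only the spread between these libraries. That spread may be technical. Values are given for replicates 1 and 2 of the control vector, called the vector alone, and then for replicates 1 and 2 of PRDM16.

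Heat shock chaperones bind unfolded proteins and use ATP, directly or through a partner, to let them fold. J proteins deliver clients to HSP70 and start its ATP cycle, BAG factors and HSP110 proteins reopen HSP70 by exchanging its nucleotide, STIP1 hands clients from HSP70 to HSP90, and small heat shock proteins hold clients without ATP. When unfolded protein accumulates, HSF1 is released from chaperones, forms trimers and binds heat shock elements, which are inverted repeats of the pentamer nGAAn, in the promoters of many of these genes.

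PRDM16 was 0.0157 and 0.234 FPKM with the vector alone and 1226 and 1146 FPKM with PRDM16, where FPKM is the number of fragments scaled to transcript length and library size. Each library had between 23138 and 24490 loci above 0, and relative depth, read from the lowest values, ranged from 1 to 1.39 times that of control vector replicate 1. Control vector replicate 2 stood apart in 2 lists that describe the state of the cells. Its summed level of 7 ER stress genes was 1309 FPKM against 617 to 838 FPKM in the other 3 libraries, and its summed level of 9 replication genes was 595 FPKM against 1083 to 1227 FPKM. The 6 kidney and carcinoma markers at loci of their own, PAX8, PAX2 and VIM among them, summed to between 3896 and 4060.2 FPKM per library. Most of that sum was VIM, at 3330 to 3455 FPKM, and PAX8 was between 169 and 208 FPKM. At loci naming 1 gene, leukocyte and endothelial markers summed to at most 0.0882 and 0.220 FPKM, with CD3E at 0 in all 4 libraries. Fibroblast markers at such loci summed to between 4.31 and 4.77 FPKM. The leukocyte marker CD68 was not in the sum, as its locus also covers EIF4A1 and further genes. That shared locus was at 362 to 477 FPKM.

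As a group, the chaperones were at a slightly higher level in the PRDM16 libraries, and most of that difference came from 1 control library. Of the 41 loci, 36 had a mean of at least 1 FPKM over the 4 libraries and were tested. None passed at a limma adjusted p under 0.05, where 0.0226% of the 13246 tested loci did, and the smallest adjusted p among the chaperones was 0.689. At an unadjusted p under 0.05 there were 4 members, beside 6.12% of all tested loci. DNAJB6, DNAJC2 and BAG3 were higher with PRDM16, as 2.42% of all tested loci were, and CRYAB was lower, as 3.7% were. Differences are given on the log2(FPKM + 1) scale, which understates the change of genes at low levels. The median log2 difference was 0.28 over the 36 loci and 0.0040 over all tested loci, with 30 loci above 0 and 6 below.

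At 22 of the 36 loci the PRDM16 libraries were both above the higher control library (61.1%), as at 21.1% of all tested loci, and below both at 2 (5.56%), as at 20.3% of all. In 20 of those 22 genes control vector replicate 2 was the lowest library, where 1 of the 2 control libraries must be the lowest. Over the 36 loci control vector replicate 2 was the lowest at 27 (75%), where it was at 38.7% of all tested loci. Control vector replicate 1 was close to the PRDM16 libraries: in 19 of the 22 the 2 control libraries differed from each other by more than the PRDM16 mean differed from control vector replicate 1, the others being BAG1, DNAJB6 and HSF1. These 22 were picked for not overlapping, and that count was not made over all loci. The median absolute log2 difference between the control libraries was 0.45 over the 36 loci and 0.19 over all tested loci. Between the PRDM16 libraries it was 0.10 and 0.098. The median log2 difference over the 36 loci was 0.075 when control vector replicate 2 was left out, and 0.50 when control vector replicate 1 was. Set against control vector replicate 1 alone, both PRDM16 libraries were higher at 25 loci (69.4%) and lower at 6 (16.7%), where 34.1% and 36.3% of all tested loci were. The part of the replication and ER stress states in the low chaperone level of control vector replicate 2 was not tested. In bulk RNA, fewer cells of a kind and less RNA per cell cannot be told apart.

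**Figure D1:**
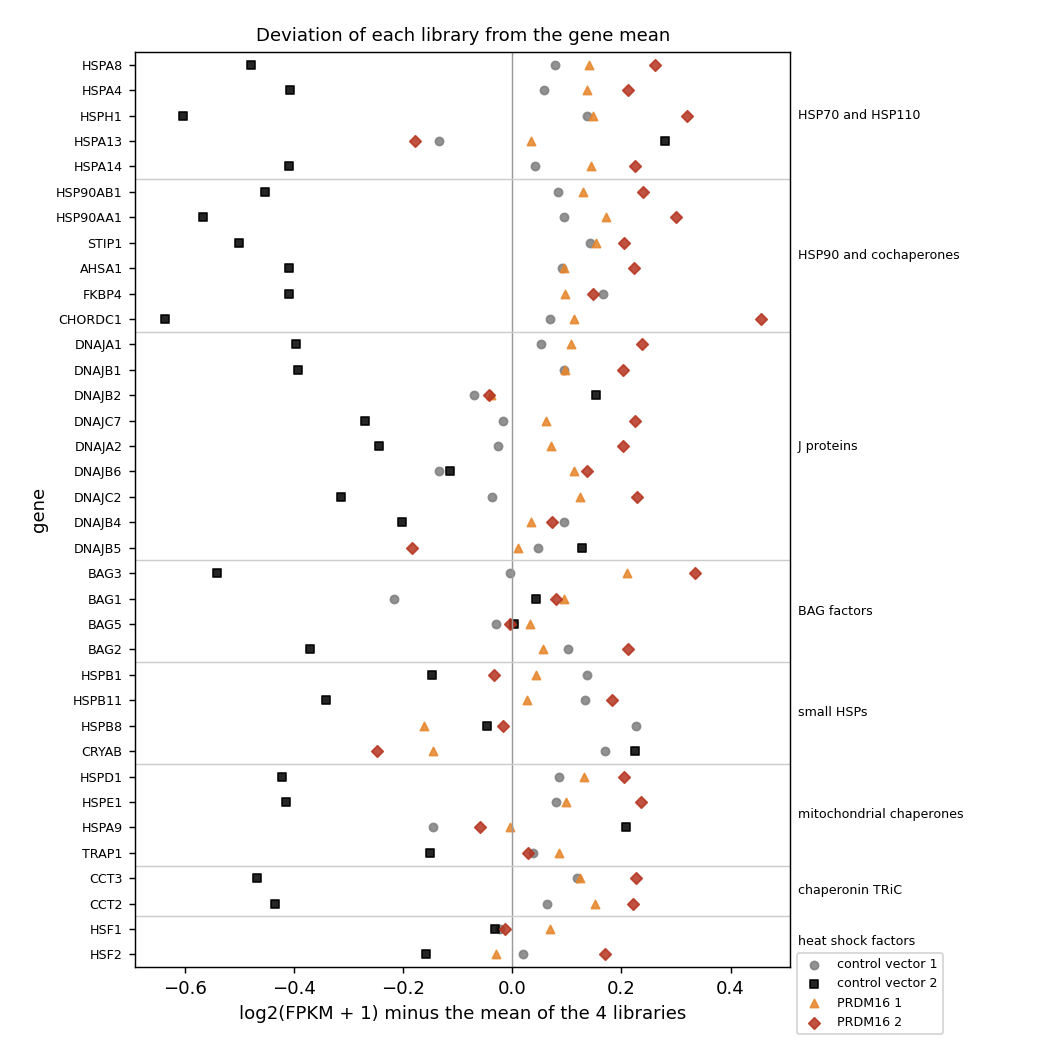
Each row is a tested chaperone gene, grouped by role, and each point is 1 library's log2(FPKM + 1) minus the mean of the 4 libraries for that gene. Control vector replicate 2 (black squares) was the lowest library in 27 of the 36 genes, where it was at 38.7% of all tested loci. PRDM16 replicate 2 (red diamonds) was above PRDM16 replicate 1 in 26, while control vector replicate 1 (grey circles) mostly lay near PRDM16 replicate 1.

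The 40 genes made up about 1% of the measured expression, and less in control vector replicate 2. The 41 loci summed to 6043 and 4488 FPKM with the vector alone and 6172 and 6480 FPKM with PRDM16, which was 1.05%, 0.807%, 1.08% and 1.13% of all FPKM. The highest were HSPA8, HSPB1, HSP90AB1, HSP90AA1 and HSPD1, which together held between 57.8% and 60.1% of the summed chaperone level in every library. Of the 36 tested genes, 14 had a mean of at least 100 FPKM and 9 a mean under 20 FPKM.

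**Figure D2:**
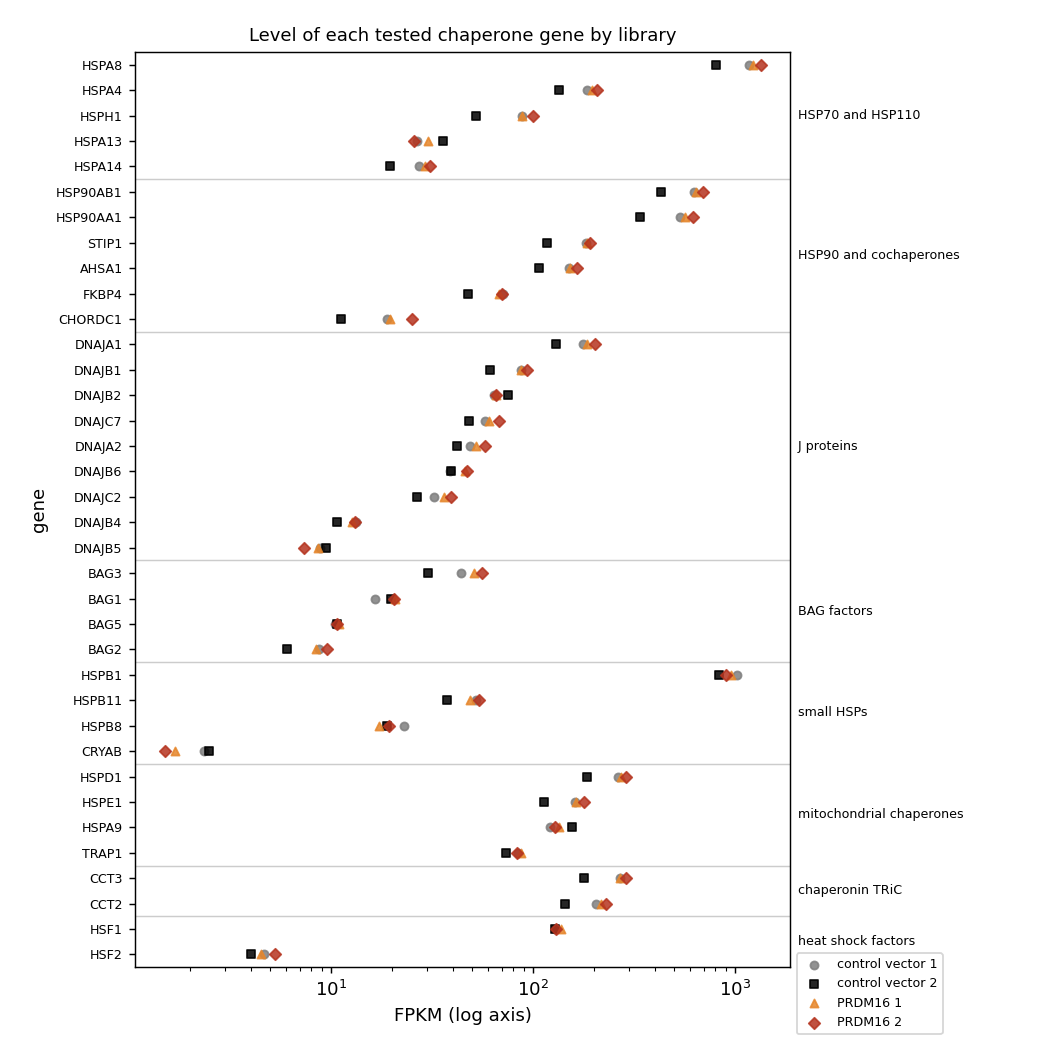
FPKM on a log axis for each tested chaperone gene, with 1 marker per library and genes ordered by mean within each role. Levels ran from CRYAB, at 1.51 to 2.48 FPKM, to HSPA8, at 803 to 1342 FPKM, and the 4 libraries of a gene lay close together beside the distance between genes.

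Among the HSP70 chaperones, HSPA6 showed the largest relative difference of the group, at a very low level. HSPA6 encodes a strictly stress-inducible HSP70 that most unstressed cells barely express. HSPA6 was 0.204 and 0.137 FPKM with the vector alone and 1.29 and 1.01 FPKM with PRDM16. Both PRDM16 libraries were above both controls, and control vector replicate 2 was again the lowest, at 0.674 times control vector replicate 1. The means were 0.171 ± 0.0470 and 1.15 ± 0.198 FPKM (SD, n = 2 each), 6.73-fold apart. Against control vector replicate 1 alone the PRDM16 libraries were 6.32 and 4.95 times as high. The gene missed the filter of 1 FPKM, and in the fit with no filter its log2 difference of 0.87 (SE 0.10) did not pass (limma adjusted p = 0.704, unadjusted p = 0.00221). At this level the value rests on few fragments, whose number is not known. HSPA7, a near copy of HSPA6 annotated as a pseudogene, was at most 0.0255 FPKM in any library.

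HSPA6 lies on chromosome 1 at 161524540 to 161526910 of GRCh38, on the plus strand. The 150 bases before its start (chr1:161524390-161524539, plus strand, from RefSeq on GRCh38.p14) are shown because this gene's groups were furthest apart. Capitals mark a heat shock element of 3 pentamers, which spans bases 74 to 62 before the start.
HSPA6: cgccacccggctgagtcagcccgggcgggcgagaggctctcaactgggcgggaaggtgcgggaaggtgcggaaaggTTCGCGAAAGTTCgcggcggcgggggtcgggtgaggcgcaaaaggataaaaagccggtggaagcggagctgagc

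HSPA1A and HSPA1B, the main heat-inducible HSP70 genes, were listed at 0 in all 4 libraries. They are near-identical neighbours on chromosome 6, at 31815464 to 31817946 and 31827735 to 31830255. Their reads map to more than 1 place, and a 0 may be a failed estimate. HSPA1L and BAG6, outside the 40 genes, were also at 0 in all 4 libraries, and the cause was not tested. The J protein gene DNAJA3, a mitochondrial partner of HSP70, was also listed at 0 in 3 libraries and at 0.00632 FPKM in control vector replicate 2. HSPA1A, HSPA1B, DNAJA3, HSPA6 and the second DNAJC7 locus (0.150 to 0.418 FPKM) were the 5 member loci below the filter.

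HSPA8, the constitutive HSP70 of the cytosol and the most abundant member, was 1182 and 803 FPKM with the vector alone and 1234 and 1342 FPKM with PRDM16. The PRDM16 libraries were the higher ones, but control vector replicate 1 was close under them. Its log2 difference was 0.40 (SE 0.20, limma adjusted p = 0.689) and became 0.12 without control vector replicate 2. The HSP110 genes HSPA4 and HSPH1, whose proteins exchange nucleotide on HSP70, had the same order of libraries. HSPA4 was 186 and 134 FPKM against 196 and 206 FPKM. HSPH1 was 87.8 and 52.1 FPKM against 88.4 and 99.8 FPKM, so that control vector replicate 1 and PRDM16 replicate 1 were nearly equal.

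HSPA14 is the HSP70 of the ribosome-associated complex, in which it pairs with the J protein DNAJC2 on nascent chains. HSPA14 was 27.3 and 19.7 FPKM with the vector alone and 29.3 and 31.1 FPKM with PRDM16. DNAJC2 was 32.4 and 26.5 FPKM against 36.3 and 39.1 FPKM. For both partners the groups did not overlap, and their log2 differences were 0.37 (SE 0.17) and 0.35 (SE 0.13), or 0.14 and 0.21 without control vector replicate 2. Neither passed (limma adjusted p = 0.689 for each). HSPA13, a microsome-associated HSP70 that lacks the usual client-binding domain, differed from HSPA4, HSPA8, HSPA14 and HSPH1 in its order of libraries. It was 26.6 and 35.9 FPKM against 30.1 and 25.8 FPKM. Control vector replicate 2 was the highest library, as in HSPA9, DNAJB2, DNAJB5, CRYAB and the summed ER stress genes. It was highest at 5 of the 36 tested members and at 4495 of all 13246 tested loci. The log2 difference of HSPA13 was -0.15, and 0.06 without control vector replicate 2.

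HSP90 and its cochaperones mostly shared 1 order of libraries, and all 6 had a higher PRDM16 mean. In 5 of 6 the groups did not overlap, where 21.1% of all tested loci were higher without overlap. Control vector replicate 2 was the lowest library in all 6, where it was at 38.7% of all tested loci. HSP90AA1, the stress-inducible cytosolic HSP90, was 536 and 338 FPKM against 565 and 618 FPKM. HSP90AB1, the constitutive form, was 624 and 429.7 FPKM against 645 and 696 FPKM. Near copies such as HSP90AB3P (79.4 to 111 FPKM) have loci of their own and can share reads with these genes, so single values are uncertain. The 2 forms kept the same order of libraries, with log2 differences of 0.47 (SE 0.23) and 0.37 (SE 0.20) that became 0.14 and 0.10 without control vector replicate 2. CHORDC1, a zinc-binding cochaperone of HSP90, had the largest log2 difference of the tested members, at 0.57 (SE 0.27, limma adjusted p = 0.689). Its levels were 19.0 and 11.2 FPKM with the vector alone and 19.6 and 25.1 FPKM with PRDM16. Control vector replicate 1 and PRDM16 replicate 1 nearly coincided, and the 2 PRDM16 libraries differed by more than that pair. Without control vector replicate 2 its difference was 0.21.

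STIP1, the adaptor between HSP70 and HSP90, was 183 and 117 FPKM against 185 and 191 FPKM. AHSA1, which stimulates the ATPase of HSP90, was 152 and 107 FPKM against 152 and 166 FPKM. In both, 3 libraries were close together and control vector replicate 2 was the low one, and without it the log2 differences were 0.04 and 0.07. FKBP4, a prolyl isomerase of steroid receptor complexes, had overlapping groups at 71.2 and 47.4 FPKM against 67.8 and 70.3 FPKM.

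J proteins divided into a set that followed HSP90 and a few that did not. DNAJB6, which suppresses aggregation of polyglutamine proteins, had the smallest p of the tested members and close replicates. It was 38.8 and 39.4 FPKM with the vector alone and 46.3 and 47.0 FPKM with PRDM16. Within each group the libraries were almost equal, and the gap between groups was many times the gap within them. The means were 39.1 ± 0.414 and 46.7 ± 0.520 FPKM (SD, n = 2 each), 1.19-fold apart, with a log2 difference of 0.25 (SE 0.08, unadjusted p = 0.0348). This did not pass over all loci (limma adjusted p = 0.689). Unlike the HSP90 set, its difference was the same against either control library, at 0.26 without replicate 2 and 0.24 without replicate 1. DNAJB6 lies on chromosome 7 at 157335381 to 157417439.

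DNAJB1, the J protein most strongly tied to the heat shock response, was 86.8 and 61.6 FPKM against 87.0 and 93.6 FPKM. DNAJA1, a farnesylated J protein of the cytosol, was 178 and 129.8 FPKM against 185 and 202 FPKM. DNAJA2, its relative, was 49.0 and 42.0 FPKM against 52.5 and 57.6 FPKM. Groups did not overlap in any of these 3, and in DNAJB1 the first library of each group was nearly equal. DNAJC7, a J protein with TPR repeats that also binds HSP90, was 57.6 and 48.2 FPKM against 60.9 and 68.2 FPKM at its main locus. Groups overlapped for DNAJB2, a neuronal-type J protein with ubiquitin-interacting motifs, at 64.1 and 75.0 FPKM against 65.5 and 65.3 FPKM, and for the DNAJB4 locus, at 13.4 and 10.7 FPKM against 12.8 and 13.1 FPKM. DNAJB5 was 8.83 and 9.39 FPKM with the vector alone and 8.59 and 7.37 FPKM with PRDM16, 1 of the 2 members with both PRDM16 libraries below both controls.

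Of the BAG factors, which release clients from HSP70, BAG3 differed most. BAG3 links HSP70 to small heat shock proteins and to selective autophagy and is a well-known HSF1 target, on chromosome 10 at 119651370 to 119677819. It was 44.1 and 30.1 FPKM with the vector alone and 51.3 and 56.0 FPKM with PRDM16. Both PRDM16 libraries were clear of both controls, which differed widely from each other. The means were 37.1 ± 9.93 and 53.7 ± 3.35 FPKM (SD, n = 2 each), 1.45-fold apart, with a log2 difference of 0.55 (SE 0.20, limma adjusted p = 0.689). Against control vector replicate 1 alone the difference was 0.28, and against control vector replicate 2 alone it was 0.81.

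BAG1, the first described nucleotide exchange factor of its family, was 16.5 and 19.9 FPKM against 20.7 and 20.4 FPKM. Here control vector replicate 1 was the low library, and the log2 difference of 0.17 was 0.30 against that library alone and 0.044 against control vector replicate 2 alone. BAG2, an inhibitor of the ubiquitin ligase CHIP, had overlapping groups at 8.76 and 6.03 FPKM against 8.45 and 9.52 FPKM. BAG5, which carries several BAG domains, was nearly level in all 4 libraries, between 10.5 and 11.0 FPKM.

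**Figure D3:**
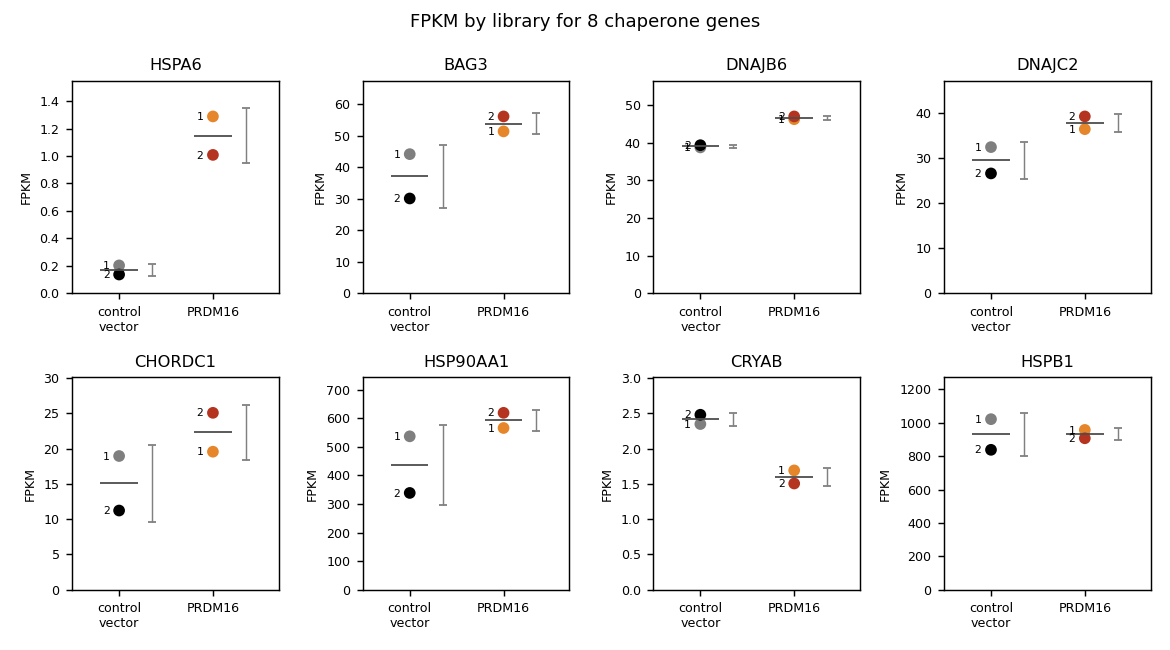
FPKM by library for 8 chaperone genes, with each group's mean as a line, its SD (n = 2) as a bar beside the points, the replicate number beside each point, and all axes starting at 0. DNAJB6 and CRYAB had tight control libraries apart from the PRDM16 libraries and HSPA6 had both controls far below PRDM16, while in CHORDC1 and HSP90AA1 control vector replicate 1 sat close to the PRDM16 libraries.

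Among the small heat shock proteins, none of the 4 had both PRDM16 libraries above both controls, where 21.1% of all tested loci did. Their log2 differences were above 0 in 2 and below 0 in 2. Without control vector replicate 2 all 4 were below 0, from -0.37 to -0.029, with a median of -0.22. The median over all tested loci was then -0.0036. These 4 genes are too few to set them apart from all loci. CRYAB, which encodes alpha B crystallin, was 2.35 and 2.48 FPKM with the vector alone and 1.69 and 1.51 FPKM with PRDM16. The groups were separate and each was tight, at a low level. The means were 2.41 ± 0.0931 and 1.60 ± 0.131 FPKM (SD, n = 2 each), 1.51-fold lower with PRDM16, with a log2 difference of -0.39 (SE 0.14, unadjusted p = 0.0386) that did not pass (limma adjusted p = 0.689). The difference was -0.37 against control vector replicate 1 alone and -0.42 against control vector replicate 2 alone. CRYAB lies on chromosome 11 at 111908565 to 111923722 on the minus strand and overlaps HSPB2 on the plus strand, and whether the libraries kept strand was not given in the sources used here.

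HSPB1, or HSP27, was the second most abundant member and differed little, at 1022 and 838 FPKM against 957 and 907 FPKM. Its log2 difference was 0.010 over 4 libraries, -0.13 without control vector replicate 2 and -0.11 after quantile normalization, so its sign depended on the processing. Its near copy HSPB1P1 was listed at 429.6 to 534.6 FPKM, and reads of the pair cannot be split with certainty. HSPB8, the partner of BAG3, was 23.0 and 18.9 FPKM against 17.3 and 19.3 FPKM, with control vector replicate 1 the high library. HSPB11, which is named with this family but works in transport along cilia, had overlapping groups at 52.5 and 37.5 FPKM against 48.7 and 54.4 FPKM.

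In the mitochondrial set, the chaperonin pair and the HSP70 differed in the order of their libraries. HSPD1 (HSP60) and HSPE1 (HSP10) form the folding chamber of the matrix and are transcribed from a shared region of chromosome 2 in opposite directions. HSPD1 was 265 and 186 FPKM against 274 and 288 FPKM. HSPE1, with its locus partners, was 161 and 114 FPKM against 163 and 179 FPKM. Both followed the HSP90 pattern, with log2 differences of 0.34 (SE 0.19) and 0.33 (SE 0.19) that became 0.08 and 0.09 without control vector replicate 2. HSPA9, or mortalin, the HSP70 that pulls proteins into the matrix, was 122 and 156 FPKM against 134 and 129 FPKM, and control vector replicate 2 was its highest library. TRAP1, the HSP90 of mitochondria, had overlapping groups at 83.9 and 73.5 FPKM against 86.8 and 83.5 FPKM.

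The TRiC subunits among the 40 genes, CCT2 and CCT3, belong to the ring that folds actin and tubulin and had the same order of libraries. CCT2 was 205 and 145 FPKM against 218 and 229 FPKM. CCT3 was 269.5 and 179 FPKM against 271 and 290.4 FPKM. Their log2 differences of 0.37 (SE 0.18) and 0.35 (SE 0.21) became 0.12 and 0.06 without control vector replicate 2 (limma adjusted p = 0.689 for each over 4 libraries).

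The RNA of the heat shock factors was nearly level. HSF1, the main regulator of the response, was 129 and 128 FPKM with the vector alone and 138 and 130.1 FPKM with PRDM16, a log2 difference of 0.06 (SE 0.08, limma adjusted p = 0.816). The groups did not overlap, but PRDM16 replicate 2 was barely above control vector replicate 1. HSF1 is controlled mainly through its protein, which these data do not measure. HSF2, a partner of HSF1, had overlapping groups at 4.68 and 4.03 FPKM against 4.49 and 5.31 FPKM.

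**Figure D4:**
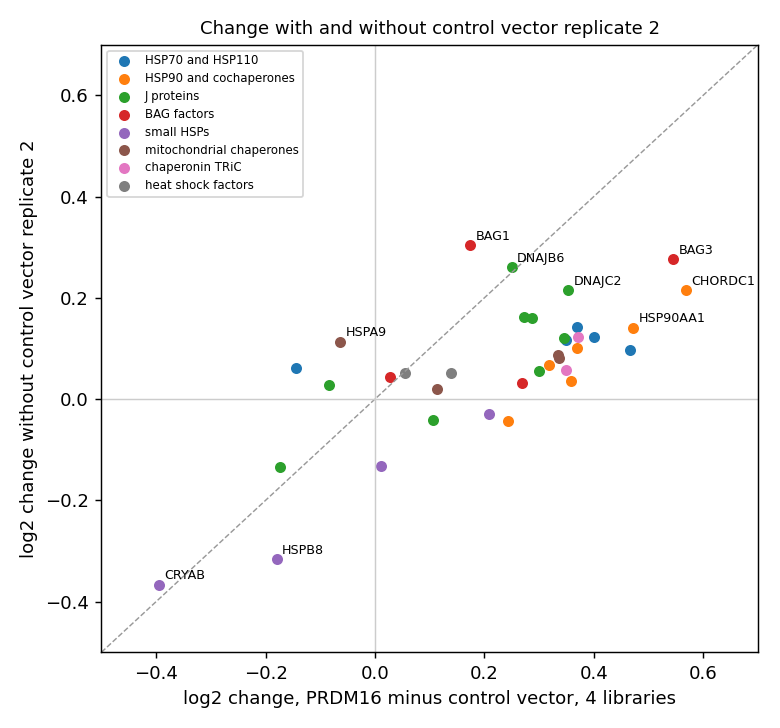
Log2 difference (PRDM16 minus control vector) of each tested member over 4 libraries, on the x axis, against the same without control vector replicate 2, on the y axis, coloured by role, with a dashed line where they are equal. Most members lie right of the line, near 0.1 on the y axis. DNAJB6 (0.25 and 0.26), CRYAB (-0.39 and -0.37) and BAG1 (0.17 and 0.30) lie on the line or left of it, as do HSPA9, HSPA13, DNAJB2, DNAJB5 and BAG5.

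Members with a heat shock element before the start were set beside the rest. RefSeq promoter windows on GRCh38.p14 were found for 35 of the 40 genes (48 windows, as some genes have several starts), and the 250 bases before each start were searched on both strands for 3 alternating pentamers, spelled GAANNTTC followed by any 2 bases and GAA. The letters were present in 7 of the 35 genes and in 7 of 48 member windows (14.6%), beside 0.441% of all 35116 windows of that length. Any such element contains 2 shorter forms, GAANNTTC and TTCNNGAA. GAANNTTC was in 15 of the 48 windows (31.2%) and 5.78% of all windows. TTCNNGAA was in 8 of the 48 (16.7%) and 6.62% of all windows, a smaller excess. A match is a description of letters, and its absence here, as in BAG3 and HSPH1, says only that this spelling is not in this window.

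The elements found in the other 6 genes are shown with 3 bases on either side and with the element in capitals, to be read against that of HSPA6 above. Some lie inside transcripts annotated from other starts.
CHORDC1: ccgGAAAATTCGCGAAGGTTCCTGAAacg
HSP90AA1: ttcTTCCGGAAGGTTCggg
HSP90AB1: ttgTTCTGGAAGCTTCtgg
HSPA8: cccTTCTGGAAGGTTCtaa
HSPD1: attTTCTGGAAAGTTCTGGAAccg
DNAJB6: cgaGAACCTTCGCGAAggt

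The CHORDC1 stretch (chr11:90223084-90223112, minus strand) holds overlapping matches, 60 to 38 bases before the start. HSP90AA1 has its element at chr14:102087117-102087135 on the minus strand, HSP90AB1 at chr6:44247828-44247846 on the plus strand and HSPA8 at chr11:123062176-123062194 on the minus strand. The remaining pair are HSPD1, at chr2:197500065-197500088 on the minus strand, and DNAJB6, at chr7:157336870-157336888 on the plus strand. HSP90AB1 and HSPA8 each hold a further match in the same window. All 6 of these genes were tested, and in all 6 both PRDM16 libraries lay above both controls, as at 21.1% of all tested loci. Their median log2 difference was 0.39, from 0.25 to 0.57, and 0.13 without control vector replicate 2. For the 25 tested members with a window but no such element, the median was 0.27 and 0.06 without that library, and 14 had groups that did not overlap in the higher direction. The difference between the 2 sets was not tested.

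Genes of protein folding outside the 40 were taken from 4 lists, with 50 tested at loci naming 1 gene. None passed (smallest limma adjusted p = 0.689, and 0 at an unadjusted p under 0.05), and their median log2 difference was 0.09, with 36 above 0 and 14 below. Other HSP90 cochaperones resembled the members most: all 7 tested had a higher PRDM16 mean, 4 had both PRDM16 libraries above both controls (21.1% of all tested loci did), and the median was 0.24, or 0.071 without control vector replicate 2. NUDC, a cochaperone tied to the dynein motor, was 88.4 and 67.1 FPKM against 94.4 and 103 FPKM, and SUGT1 was 29.5 and 23.7 FPKM against 30.4 and 32.5 FPKM. The phosphatase PPP5C was 36.2 and 24.5 FPKM against 36.5 and 39.6 FPKM. In all 7 control vector replicate 2 was the lowest library, where it was at 38.7% of all tested loci.

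Other chaperonin and prefoldin subunits had a higher PRDM16 mean at all 8 tested loci, with a median of 0.15. Groups did not overlap at 4 of the 8, where 21.1% of all tested loci were higher without overlap. Without control vector replicate 2 the median was 0.070, with 5 loci above 0 and 3 below. CCT8 was 103 and 72.7 FPKM against 104 and 112 FPKM. Prefoldin subunits VBP1 and PFDN4 were 53.8 and 39.8 against 55.0 and 60.3 FPKM and 33.9 and 31.6 against 35.5 and 37.8 FPKM. Other HSP70 and J protein genes, many of them in the ER, were spread on both sides of 0. Of the 24 tested, 15 were higher, with a median of 0.046, or 0.024 without control vector replicate 2. At 4 (16.7%) both PRDM16 libraries were above both controls and at 2 (8.33%) below, against 21.1% and 20.3% of all tested loci. GRPEL1, the nucleotide exchange factor of HSPA9, was 51.3 and 39.9 FPKM against 56.8 and 63.6 FPKM, the cochaperone SGTA 63.8 and 49.6 against 68.8 and 76.3 FPKM, and DNAJC8, of the spliceosome, 57.8 and 47.5 against 56.9 and 65.5 FPKM. Of 11 tested genes listed as tied to HSF1 or mitochondrial quality control, 2 (18.2%) had both PRDM16 libraries above both controls and 3 (27.3%) both below. The 11 include HSPA5, an ER chaperone that also counts among the ER stress genes, as does DNAJB9 of the HSP70 and J protein list. Over the 11 genes the median was 0.0024, with 6 higher and 5 lower, and -0.0086 without control vector replicate 2. Of these, HSBP1, which binds HSF1, was 189 and 172 FPKM against 192 and 199.8 FPKM, the ubiquitin gene UBB 906 and 591 against 974 and 812 FPKM, and the matrix unfoldase gene CLPX 17.1 and 16.7 against 19.3 and 17.9 FPKM.

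**Figure D5:**
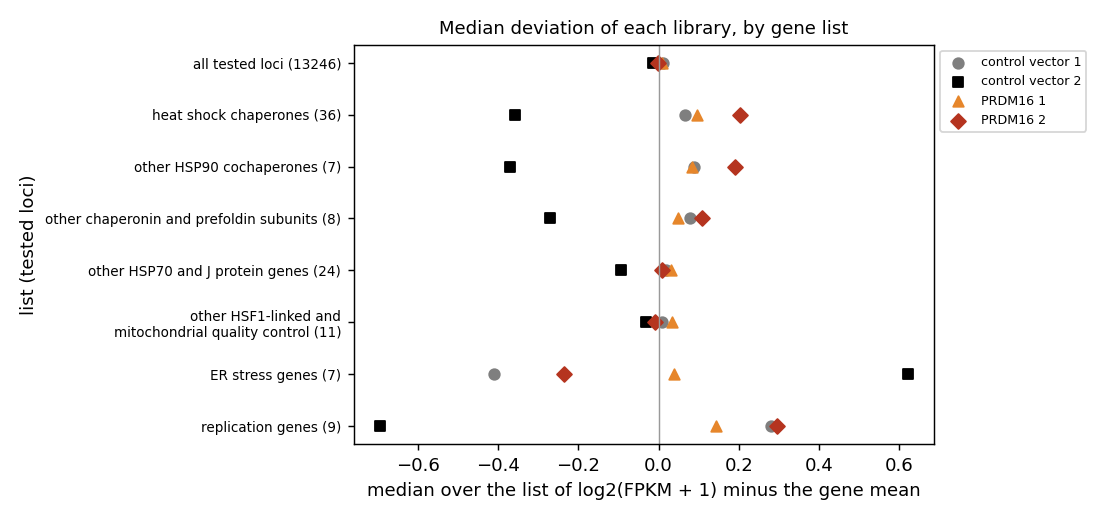
For each gene list, the median over its tested loci of log2(FPKM + 1) minus the gene's mean over 4 libraries, with 1 marker per library and the number of loci in brackets. Control vector replicate 2 was low in the heat shock chaperones (-0.36), other HSP90 cochaperones (-0.37) and replication genes (-0.69) and high in ER stress genes (0.62), while over all tested loci it was at -0.01. HSPA5 and DNAJB9 count both among the ER stress genes and in another list.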

How the data were processed

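RNA-seq libraries of 4 samples were analysed, 2 of each vector. Per the submitters' processing notes, the authors used TopHat2 2.1.0 and Cufflinks 2.2.1 with Cuffdiff, after Trim Galore, on hg38. Their annotation, library scaling and strand setting were not given in the sources used here. As the tools write FPKM and the deposited values are fractional, with library sums from 556213 to 574003, these were read as FPKM. Fragment numbers are unknown, so no counting interval is given. Relative depth came from the most frequent ratio among values under 0.3 FPKM.

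Members were matched by gene name. Loci with a mean of at least 1 FPKM were tested with limma 3.58.1 in R 4.3.3 on log2(FPKM + 1), with a variance trend, two-sided, with Benjamini-Hochberg adjustment over all 13246 loci and a threshold of 0.05. The fit was tested on simulated data. A two-sided exact permutation test of 2 against 2 cannot go below p = 0.333, so it was not used. Coordinates are from GENCODE on GRCh38 and promoter sequences from RefSeq on GRCh38.p14. Python 3.11.15, numpy 2.4.6, pandas 2.3.3 and matplotlib 3.10.9 made tables and plots.

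Members, gene lists and tests were chosen with earlier results of these data known. All 40 members are accounted for, and of each further list the 3 tested genes with the smallest p, at loci naming 1 gene, are named. The alternatives were a pseudocount of 0.1 or 0.5, filters of none or a mean of at least 5 FPKM, 3 other scalings, limma with robust variances or without a trend, a block on the replicate number, each library left out, and loci naming 1 gene only. The same alternatives for PRDM16 and the further lists were added after seeing the data.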

Additional observations from a re-analysis of the deposited data

How the results depend on the processing

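No chaperone passed under any of the 15 alternatives, and PRDM16 passed in all that were run on it. The number of called loci in the whole table was 3. It was 5 with a pseudocount of 0.1, 1 with no filter, 6 without a variance trend, 5 with robust variances, and from 17 to 37 with 1 library left out. With the replicate number as a block, 5 loci were called, none of them a chaperone. Same-numbered libraries did not deviate together (correlation of deviations -0.06), so the numbers were not taken as pairs. The median log2 difference of the chaperones ranged from 0.075 (without control vector replicate 2) to 0.50 (without control vector replicate 1). The number lower in both PRDM16 libraries was 5 without control vector replicate 1 (40.8% of all tested loci) and 6 without replicate 2 (36.3%). Without PRDM16 replicate 1 or 2, the remaining PRDM16 library was below both controls at 3 members each time (35.2% and 27.7% of all tested loci). With 4 libraries and a mean of at least 5 FPKM, where CRYAB is not tested, 1 member was lower in both (18.6% of all tested loci). Of 502 single-gene values, 493 kept their direction and side of the threshold. Without control vector replicate 2 the log2 difference changed sign for 7 members. With 1 library left out it ranged from -0.19 to 0.028 for DNAJB2, -0.042 to 0.26 for DNAJB4, -0.044 to 0.53 for FKBP4, -0.35 to 0.062 for HSPA13, -0.24 to 0.11 for HSPA9, -0.13 to 0.15 for HSPB1 and -0.029 to 0.45 for HSPB11. HSPB1 was also -0.11 after quantile normalization. The cause was not tested. With 1 library left out, the lone sample of a group is assumed to vary like the other group. Values near 0.2 FPKM, as in HSPA6, rest on an unknown and small number of fragments.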

Other observations

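Many chaperone genes have pseudogenes, and the table lists 85 loci named as copies of members, HSPA7 included, of which 23 had a mean of at least 1 FPKM. Reads of the parent gene and of a close copy can be placed at either, so both values are uncertain. The 23 loci are copies of DNAJA1, HSP90AA1, HSP90AB1, HSPA8, HSPA9, HSPB1, HSPD1, HSPE1 and STIP1. HSPB1P1 was 534.6 and 429.6 FPKM with the vector alone and 505 and 518 FPKM with PRDM16, beside HSPB1 at 838 to 1022 FPKM. HSP90AB3P was 103 and 79.4 FPKM against 102 and 111 FPKM. In 20 of the 23 loci control vector replicate 2 was the lowest library, as in most parent genes and at 38.7% of all tested loci. One that differed, singled out after its values were seen, was HSPE1P9, at 2.44 and 2.75 FPKM against 5.04 and 4.58 FPKM, which did not pass (limma adjusted p = 0.689).

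Ratios between partners were also computed. HSP90AA1 was 0.859 and 0.788 times HSP90AB1 with the vector alone and 0.877 and 0.889 times with PRDM16. HSPD1 was 1.65, 1.63, 1.68 and 1.61 times the HSPE1 locus in the same order of libraries. The ratio of BAG3 to BAG1 was 2.68 and 1.51 with the vector alone, and with PRDM16 it was 2.48 and 2.74, so control vector replicate 2 stood apart there while control vector replicate 1 was within the range of the PRDM16 libraries.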
